A study of Homo sapiens with 7 samples.

Results

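The genes described here bring long-chain fatty acids into heart muscle cells, oxidize them in mitochondria and control that oxidation. They were taken from the deposited expression table by gene symbol, from a fixed list of 39 genes. All 39 symbols were found, each once, among the 60234 genes of the table. The values are TPM, a transcript abundance scaled by the length of the gene and by all transcripts of its library. The cells were cardiomyocytes grown from WTC-11, an established human induced pluripotent stem cell line, matured for 35 days after differentiation. For 96 h they then received 2 uM of an antisense oligonucleotide, or ASO, a designed strand that binds its target RNA by base pairing, with no transfection step named in the labels. There are 3 libraries with a scrambled ASO and 4 with one that targets MYH7B. Both groups share line, maturation, dose and time, and differ in the ASO alone as far as the labels say. The design asks what lowering the MYH7B transcript, treated by the study as a regulatory noncoding RNA, does to gene expression in human heart cells. With a single targeting ASO, effects of lowering MYH7B cannot be told apart from other effects of that ASO. All libraries come from a single stem cell line, and no label says whether cultures of a group came from separate differentiations. The p-values therefore measure the spread between these libraries, which may be technical.

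Fatty acids are the main fuel of the adult heart, while immature cardiomyocytes, including those made from stem cells, lean more on glucose. A fatty acid enters the cell through carriers such as CD36, is bound by FABP3, is joined to coenzyme A by acyl-CoA synthetases, and crosses the inner mitochondrial membrane as a carnitine ester. In the matrix the chain is shortened in repeated rounds of dehydrogenation, hydration, a further dehydrogenation and thiolysis. Electrons from the acyl-CoA dehydrogenases pass through electron transfer flavoprotein (ETFA with ETFB) and its oxidoreductase ETFDH to ubiquinone. The nuclear receptors PPARA, PPARD, ESRRA and ESRRG and the coactivator PPARGC1A (PGC-1 alpha) drive transcription of many of these genes.

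The comparison was made between scrambled ASO replicates 1 to 3 and MYH7B ASO replicates 2 to 4, numbered as in the sample titles. The column of MYH7B ASO replicate 1 is out of row register with the gene names. It was used only after reordering, as an alternative, and its values are given as such. The 6 compared libraries had 15290 to 16207 genes at 1 TPM or more and 27.4% to 33.6% of TPM in mitochondrially encoded genes, against 14823 genes and 17.2% in the reordered replicate 1. The ASO target MYH7B had 23.0, 36.5 and 25.1 TPM with the scrambled ASO and 9.30, 5.65 and 6.31 TPM with the MYH7B ASO, a log2 fold change of -1.85 (limma adjusted p = 0.0109). It had 1.29 TPM in the reordered replicate 1. MIR499A, a microRNA gene that overlaps MYH7B over 122 bp on the same strand, averaged 33.6 TPM with the scrambled ASO and 0 TPM with the MYH7B ASO. Reads there could belong to either gene, so these values need not stand for the mature microRNA, which was not measured separately. The MYH7B call was lost with all 7 libraries (limma adjusted p = 0.0525), without MYH7B ASO replicate 4 (0.0618), with no filter on low values (0.0779) and under both replicate blocks (0.331 and 0.720), with log2 fold changes from -2.30 to -1.79. All 8 cardiomyocyte markers passed the filter on low values, with a summed level of 11970 to 13210 TPM with the scrambled ASO and 9441 to 11370 TPM with the MYH7B ASO. Of these 8 markers, 5 were lower without overlap, with ACTC1 called (limma adjusted p = 0.0209), and 1, TNNI1, was higher without overlap and not called. Of all genes tested, 14.1% were lower and 7.11% higher without overlap. Markers of other cells also differed between groups. The 9 fibroblast markers summed to 2908 to 5255 TPM with the scrambled ASO and 1366 to 2103 TPM with the MYH7B ASO, and the 5 smooth muscle markers to 984.8 to 1390 and 582 to 777.7 TPM. The reordered replicate 1 had 4159 and 1207 TPM, within the scrambled ASO ranges. The fibroblast sum is carried by the collagens COL1A1, COL1A2 and COL3A1. Of the 9 fibroblast markers 5 were lower without overlap, with COL1A2 and LUM called, and 2 were higher without overlap. These were PDGFRA, at 23.7 ± 4.01 TPM with the scrambled ASO and 36.3 TPM on average with the MYH7B ASO, and TCF21, at 8.40 ± 1.61 and 14.4 TPM, neither of them called by limma and both higher in the authors' deposited table. Of the 5 smooth muscle markers 3 were lower without overlap, with MYH11 called (5.44-fold lower, limma adjusted p = 0.00599). In bulk RNA, fewer cells of a type cannot be told apart from less RNA per cell, and the part of these shifts in the results below was not tested. Macrophage and adipocyte markers summed to at most 8.45 and 4.42 TPM in any compared library, with PTPRC and CIDEC listed at 0 in all 6.

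Most of the fatty acid oxidation genes differed between the MYH7B ASO and the scrambled ASO by less than could be told from the replicate spread, and a few were lower. ECHDC2, an enoyl-CoA hydratase family member, fell 8.18-fold, and ETFA, the alpha subunit of electron transfer flavoprotein, fell 1.85-fold. PPARGC1A, PPARA and ACACB were lower in every MYH7B ASO library than in any scrambled ASO library, without passing the test used here. They passed in the authors' deposited table, a different test whose libraries may differ from those compared here. CPT1A and CPT2 of the carnitine shuttle were higher in every compared MYH7B ASO library than in any scrambled ASO library. In the reordered replicate 1, CPT1A was below and CPT2 within the scrambled ASO range. Of the members tested, 18.4% were separate in this way as lower and 5.26% as higher, against 14.1% and 7.11% of all genes tested. The enzymes of the main oxidation cycle and the carnitine shuttle passed neither here nor in the authors' deposited table.

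Of the 39 genes, 38 averaged 1 TPM or more across the compared libraries and were tested. The exception, ACADL (long-chain acyl-CoA dehydrogenase), had 0.780, 0.0923 and 0.653 TPM with the scrambled ASO and 0.542, 0.712 and 0.0342 TPM with the MYH7B ASO. The test was limma on log2(TPM + 1), adjusted by Benjamini-Hochberg over all 15988 genes tested, and a gene with an adjusted p under 0.05 is referred to as called. Called lower were 2 of 38 members, or 5.26%, against 1.48% of all genes tested. Called higher were 0 of 38 members, against 0.181% of all genes. At an unadjusted p under 0.05 limma had 6 lower members, or 15.8% against 10.6% of all genes, and 1 higher, or 2.63% against 4.67%. In the authors' deposited table, 5 of 38 members with an adjusted p-value were lower with one under 0.05, or 13.2% against 5.69% of all its genes, and 0 were higher against 3.02%. The groups did not overlap for 7 members that were lower, or 18.4% against 14.1% of all genes tested, and for 2 that were higher, or 5.26% against 7.11%. The list was chosen with earlier results of these data known, so these shares are not an independent test of it. The median log2 fold change of the 38 members was 0.03, beside -0.04 for all genes tested, and 30 members lay within 0.5 of zero on the log2 scale, or 78.9% against 77.3% of all genes. The summed level of the 39 genes ran from 1786 to 1860 TPM with the scrambled ASO and from 1552 to 1878 TPM with the MYH7B ASO, so the groups overlapped.

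**Figure D1:**
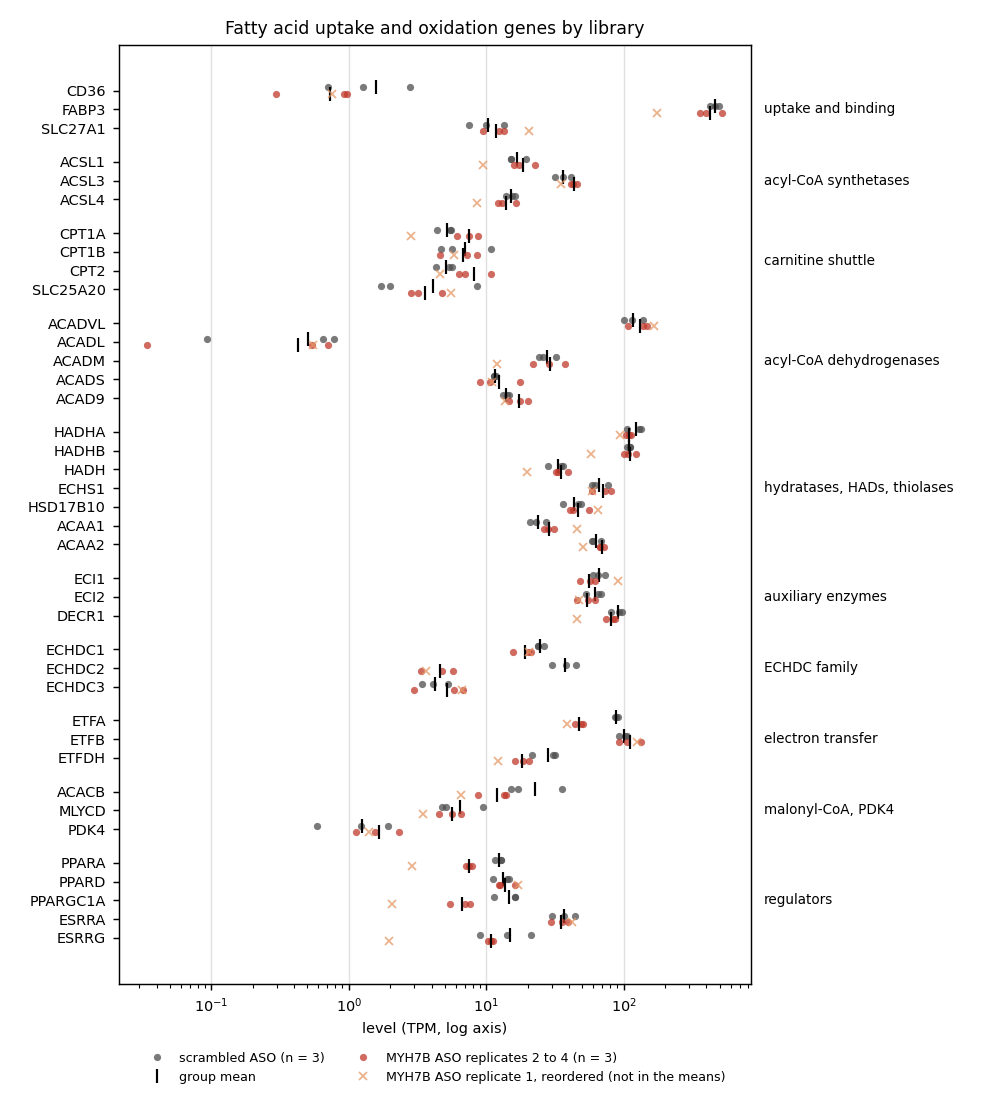
Level of each of the 39 genes in every library in TPM on a log axis, grouped by role, with scrambled ASO libraries in grey, MYH7B ASO replicates 2 to 4 in red, their group means as black ticks and the reordered MYH7B ASO replicate 1 as a cross. FABP3 is the most abundant, and the grey and red points of ECHDC2 and ETFA stand clear of each other.

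**Figure D2:**
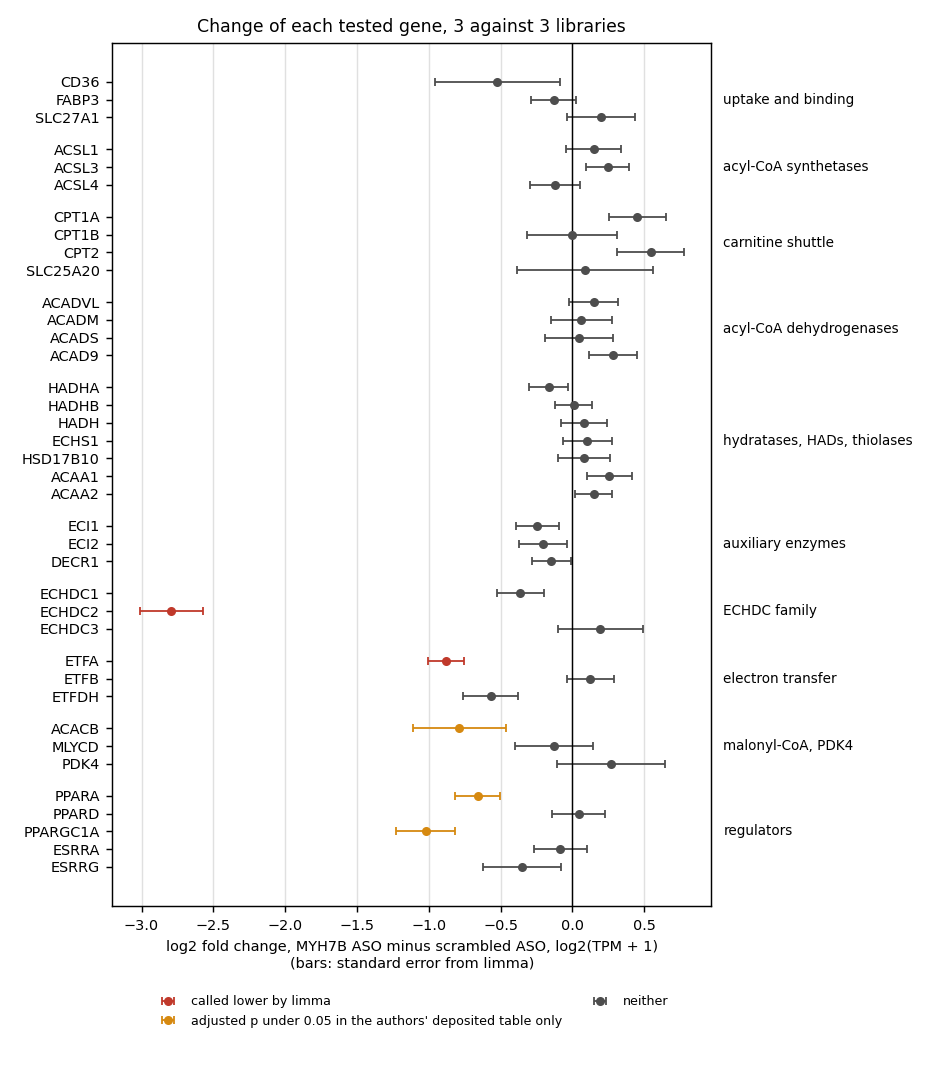
Log2 fold change of the 38 tested genes on the log2(TPM + 1) scale with the standard error from limma, MYH7B ASO minus scrambled ASO, 3 libraries against 3. ECHDC2 at -2.79 and ETFA at -0.88 are called lower, and 30 of the 38 genes lie between -0.5 and 0.5.

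Uptake and binding genes spanned the widest range of levels. FABP3, the heart fatty acid binding protein that carries fatty acids through the cytosol, had 461.9, 493.4 and 428.3 TPM with the scrambled ASO and 520.5, 360.4 and 396.9 TPM with the MYH7B ASO, above 98.8% of expressed genes. The groups overlapped at a log2 fold change of -0.13 ± 0.16 (SE, limma adjusted p = 0.737). CD36, the membrane fatty acid translocase, was near the bottom, with 2.77, 1.28 and 0.709 TPM and 0.927, 0.298 and 0.976 TPM. Only 3.4% of expressed genes had a lower mean, and a difference in CD36 could not be resolved at this level (log2 fold change -0.52, standard error 0.44, limma adjusted p = 0.614). SLC27A1, a fatty acid transport protein, lay between them at 10.3 ± 3.03 and 11.8 ± 2.08 TPM (SD, n = 3). The highest level of these 3 genes thus belonged to the cytosolic carrier and the lowest to the membrane translocase, in both groups.

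Among the acyl-CoA synthetases, which activate fatty acids, ACSL3 was the most abundant. ACSL3 had 31.8, 36.5 and 41.2 TPM with the scrambled ASO and 41.1, 46.0 and 42.8 TPM with the MYH7B ASO, so that its groups touched at a single pair of libraries. The log2 fold change of ACSL3 was 0.25 ± 0.15 (SE, limma adjusted p = 0.483). ACSL1, the main isoform of adult heart, had 16.6 ± 2.55 and 18.6 ± 3.56 TPM, and ACSL4, which prefers arachidonic acid, 15.1 ± 1.13 and 13.9 ± 2.33 TPM (SD, n = 3). The means of ACSL1 and ACSL4 differed by less than the spread between libraries.

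The carnitine shuttle was expressed at a low level throughout, with means over the 6 libraries from 3.86 to 6.92 TPM. CPT1A and CPT1B are the liver-type and muscle-type forms of the enzyme that commits acyl groups to the mitochondrion, and in these cells they stood at similar levels. CPT1A had 4.39, 5.50 and 5.59 TPM with the scrambled ASO and 8.71, 7.54 and 6.14 TPM with the MYH7B ASO. CPT1B had 4.71, 5.65 and 10.8 TPM and 8.57, 7.21 and 4.64 TPM. CPT2, which reforms the acyl-CoA inside the mitochondrion, had 5.37, 4.33 and 5.64 TPM and 10.9, 6.97 and 6.37 TPM. The CPT1A and CPT2 groups did not overlap, with every MYH7B ASO library above every scrambled ASO library, while those of CPT1B did. CPT1A and CPT2 had log2 fold changes of 0.45 and 0.55, and neither passed (limma adjusted p = 0.333 and 0.316). In the authors' deposited table their adjusted p-values were 0.053 and 0.0822. In the reordered MYH7B ASO replicate 1 CPT1A was 2.82 TPM and CPT2 4.64 TPM, both within or below the scrambled ASO range, so the separation held only without that library. The carrier SLC25A20 varied more within a group than between groups, with 1.98, 1.71 and 8.64 TPM with the scrambled ASO. CPT1B overlaps the readthrough gene CHKB-CPT1B on the same strand, and reads between them cannot be assigned with certainty.

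The enzymes of the oxidation cycle itself overlapped between groups, at means over the 6 libraries from 12.0 to 124.4 TPM. ACADVL, the very-long-chain dehydrogenase that opens the cycle, had 115.2, 100.2 and 138.2 TPM with the scrambled ASO and 137.2, 147.0 and 108.4 TPM with the MYH7B ASO. The groups overlapped (log2 fold change 0.15, limma adjusted p = 0.725). The medium-chain, short-chain and complex I-assembly members ACADM, ACADS and ACAD9 had log2 fold changes of 0.06, 0.05 and 0.28. HADHA, the alpha subunit of the mitochondrial trifunctional protein, had 132.6, 129.6 and 105.9 TPM and 113.4, 108.9 and 104.0 TPM, and its partner HADHB 106.4, 111.7 and 111.8 TPM and 123.7, 108.2 and 101.4 TPM. The pair lies head to head on chromosome 2 with a 1557 bp overlap on opposite strands, so reads there could belong to either unless strand was used. HADH, ECHS1, HSD17B10, ACAA2 and the peroxisomal thiolase ACAA1 had log2 fold changes from 0.08 to 0.26. Of the 11 tested dehydrogenases, hydratases and thiolases, none was called, and the lowest limma adjusted p was 0.483.

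The auxiliary enzymes for unsaturated chains were the one group of steps in which all 3 genes were lower on average, by small amounts. DECR1, the 2,4-dienoyl-CoA reductase, had 81.2, 97.8 and 92.1 TPM with the scrambled ASO and 74.7, 86.0 and 83.8 TPM with the MYH7B ASO. The isomerases ECI1 and ECI2 had means of 66.1 and 62.3 TPM, and 55.7 and 54.1 TPM. None of the 3 passed, with log2 fold changes from -0.24 to -0.15 and limma adjusted p-values of 0.493 and above. Their groups overlapped in every case.

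ECHDC2 carried the largest difference of the list. It spans chromosome 1, positions 52895910 to 52927212, on the minus strand in GENCODE 29 on GRCh38. Its protein belongs to the enoyl-CoA hydratase and isomerase fold family, is mitochondrial, and has no settled substrate. ECHDC2 had 30.1, 38.3 and 44.8 TPM with the scrambled ASO and 4.75, 5.73 and 3.35 TPM with the MYH7B ASO. The highest MYH7B ASO library lay far below the lowest scrambled ASO library. The mean fell from 37.7 ± 7.34 to 4.61 ± 1.2 TPM (SD, n = 3), and the log2 fold change was -2.79 ± 0.22 (SE, limma adjusted p = 0.00209). It was called in each of the 6 fits that left out a library (limma adjusted p from 0.00777 to 0.0148). The reordered replicate 1 had 3.68 TPM, and with all 7 libraries the log2 fold change was -2.85 (limma adjusted p = 0.00318). For ECHDC2 the authors' deposited table holds -2.41 on the log2 scale (adjusted p-value 7.98e-31), at a mean normalized count of 610.2. A pseudogene of 175 bp, AC099677.1, lies inside ECHDC2 on the other strand. It was at 4.37 TPM on average with the scrambled ASO and listed at 0 in the 3 MYH7B ASO libraries.

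The other genes of that family were not called, and the difference between genes was not tested. ECHDC1, an ethylmalonyl-CoA decarboxylase that removes faulty products of acyl-CoA carboxylation, had 23.9, 23.7 and 26.2 TPM with the scrambled ASO and 20.2, 21.1 and 15.8 TPM with the MYH7B ASO. The groups did not overlap, and the log2 fold change of -0.36 did not pass (limma adjusted p = 0.339). ECHDC3 had 4.25 ± 0.92 and 5.19 ± 1.98 TPM (SD, n = 3), which differed by 0.20 on the log2 scale (limma adjusted p = 0.799). With the scrambled ASO, ECHDC2 was the most abundant of the 3 genes, and with the MYH7B ASO ECHDC1 was.

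Electron transfer flavoprotein is built from 1 copy each of ETFA and ETFB, and these genes differed in what the test called. ETFA, on chromosome 15 at positions 76215355 to 76311472, had 86.4, 90.5 and 88.2 TPM with the scrambled ASO and 48.5, 50.4 and 44.1 TPM with the MYH7B ASO. The libraries of each group lay close together and the groups were far apart. Its mean fell from 88.4 ± 2.07 to 47.7 ± 3.27 TPM (SD, n = 3), and the log2 fold change was -0.88 ± 0.13 (SE, limma adjusted p = 0.0156). ETFB, the beta subunit, on chromosome 19 at positions 51345169 to 51366418, had 102.6, 92.3 and 106.5 TPM and 134.7, 105.5 and 92.4 TPM. Its groups overlapped at a log2 fold change of 0.13 ± 0.16 (SE, limma adjusted p = 0.759). Within libraries, the ratio of ETFA to ETFB was 0.842, 0.981 and 0.828 with the scrambled ASO and 0.360, 0.478 and 0.477 with the MYH7B ASO. That ratio was computed after the values were seen, and an exact permutation test of 3 against 3 libraries cannot go below 0.1. The HADHA to HADHB ratio, for the other complex made of partner genes, overlapped between groups at 1.12 ± 0.154 and 0.983 ± 0.0577 (SD, n = 3).

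ETFDH, the oxidoreductase that hands the electrons on to ubiquinone, had 31.7, 30.9 and 21.4 TPM with the scrambled ASO and 20.4, 16.2 and 18.5 TPM with the MYH7B ASO. The lowest scrambled ASO library was close to the highest MYH7B ASO library, and the log2 fold change of -0.57 did not pass (limma adjusted p = 0.210). In the authors' deposited table ETFDH had an adjusted p-value of 0.176 and ETFA one of 1.75e-05. The ETFA call was narrower than that of ECHDC2. It was lost on leaving out any one of scrambled ASO replicates 1 and 2 and MYH7B ASO replicates 2 to 4 (limma adjusted p from 0.0556 to 0.0833), with log2 fold changes from -0.92 to -0.82, and kept without scrambled ASO replicate 3 (0.0458). The ETFA call was also lost without a variance trend (limma adjusted p = 0.0606) and under both replicate blocks (0.352 and 0.720). With the reordered replicate 1 at 38.6 TPM, all 7 libraries gave -0.95 (limma adjusted p = 0.0244). A small RNA gene of 343 bp, RF00017, lies inside ETFA on the same strand, at 4.40 TPM on average with the scrambled ASO and 9.05 TPM with the MYH7B ASO, and could share reads with it.

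**Figure D3:**
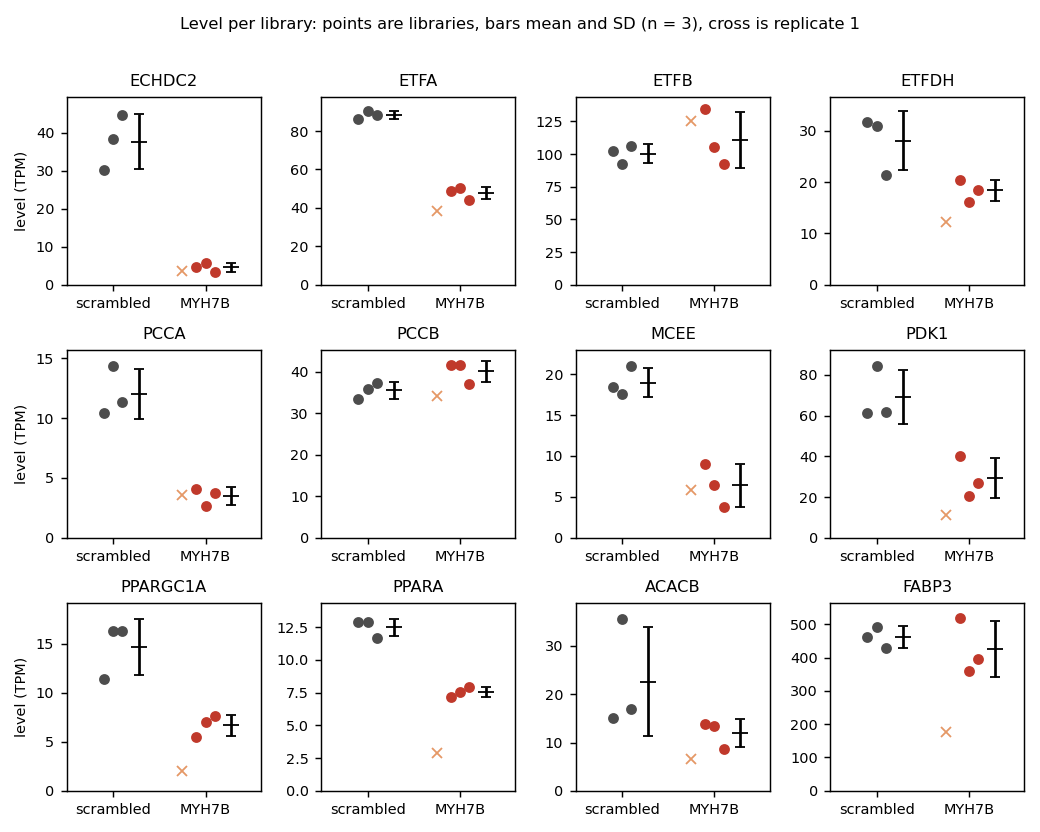
Level in TPM per library for 12 genes, scrambled ASO in grey and MYH7B ASO replicates 2 to 4 in red, with the mean and SD (n = 3) beside the points and the reordered replicate 1 as a cross outside the mean. ETFA at 44.1 to 50.4 TPM lies below the scrambled ASO range of 86.4 to 90.5 TPM while ETFB at 92.4 to 134.7 TPM overlaps it, and PCCA is separate between groups while PCCB overlaps.

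The sequences before the starts of both called genes and of ETFB are shown so that they can be set beside the values. They are the 250 bases before the start that RefSeq gives for each gene on GRCh38.p14, read 5′ to 3′ on the gene's strand, which is minus for all 3. For ECHDC2 and ETFB the RefSeq start lies inside the GENCODE 29 span, so other starts of these genes are not covered. The window of ECHDC2 is chr1:52921775-52922024, that of ETFA chr15:76311470-76311719 and that of ETFB chr19:51354843-51355092. Capitals mark matches to the motifs listed in the next paragraph, found here in ETFA alone.
ECHDC2: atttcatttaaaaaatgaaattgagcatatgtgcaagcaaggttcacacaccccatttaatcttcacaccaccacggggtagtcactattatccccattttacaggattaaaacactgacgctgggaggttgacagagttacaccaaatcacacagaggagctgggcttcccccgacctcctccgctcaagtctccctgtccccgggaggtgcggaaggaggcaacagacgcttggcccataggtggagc
ETFA: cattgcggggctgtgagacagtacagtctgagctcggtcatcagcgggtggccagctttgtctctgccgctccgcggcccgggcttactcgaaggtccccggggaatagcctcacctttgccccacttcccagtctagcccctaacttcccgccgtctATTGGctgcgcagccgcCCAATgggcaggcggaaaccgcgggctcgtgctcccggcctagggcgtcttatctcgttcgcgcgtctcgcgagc
ETFB: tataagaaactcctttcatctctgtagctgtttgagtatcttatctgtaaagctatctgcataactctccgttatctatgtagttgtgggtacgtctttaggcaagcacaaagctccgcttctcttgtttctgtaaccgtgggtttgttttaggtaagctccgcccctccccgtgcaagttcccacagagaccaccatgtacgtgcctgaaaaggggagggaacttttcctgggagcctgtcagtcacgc

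Such windows were found for 35 of the 39 genes. CPT1B, ACAA1, DECR1 and ETFDH had no entry. A nuclear receptor core that PPAR and ERR receptors bind, AGGTCA, was searched on both strands, and so was the longer ERR element TCAAGGTCA, which contains that core. The same was done for the CCAAT box (spelled as named), for the TATA box spelled TATAAA, and for an NRF1 core spelled GCATGCGC. An ETS core spelled CCGGAAG and a TEAD element spelled CATTCC completed the search. The nuclear receptor core was in 0 of 35 member windows, against 12.1% of all 35116 windows, and the ERR element in 0 of 35, against 0.319%. The CCAAT box was in 10 of the 35, or 28.6% against 32% of all windows. ETFA is one of these 10, with a match on each strand, and neither the ECHDC2 nor the ETFB window held any of the 7 motifs. The TEAD element was in 4 of the 35 windows, those of CD36, ACSL3, ECHDC1 and ECHDC3, or 11.4% against 11.9%. The ETS core was in 5, or 14.3% against 8.52%, the TATA box in 2, or 5.71% against 10.7%, and the NRF1 core in 1, or 2.86% against 2.63%. The member windows had a median GC content of 69.2%, against 58% for all windows. A match or its absence in this window says nothing about binding of a factor.

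The regulators of the pathway divided. PPARGC1A, the coactivator that raises mitochondrial and fatty acid oxidation genes, had 11.4, 16.3 and 16.2 TPM with the scrambled ASO and 5.49, 6.97 and 7.58 TPM with the MYH7B ASO. Each MYH7B ASO library was below each scrambled ASO library, and the mean went from 14.7 ± 2.81 to 6.68 ± 1.07 TPM (SD, n = 3). The log2 fold change of -1.02 ± 0.20 (SE) missed the threshold narrowly (limma adjusted p = 0.0541). PPARGC1A passed when only genes averaging 5 TPM were tested and with sample weights (limma adjusted p = 0.0338 and 0.0394). It did not pass in any of the 6 fits that left out a library (0.0572 to 0.174), with all 7 libraries (0.132) or under the other limma settings tried (0.0548 to 0.720). In the authors' deposited table PPARGC1A stood at -0.86 on the log2 scale (adjusted p-value 3.07e-04). PPARA, the nuclear receptor that senses fatty acids, had 12.87, 12.86 and 11.7 TPM and 7.14, 7.52 and 7.94 TPM. Its groups were tight and separate, with a log2 fold change of -0.66 and a standard error of 0.16 (limma adjusted p = 0.0911, and 0.0132 in the authors' deposited table). In the reordered replicate 1 both were lower still, at 2.05 TPM for PPARGC1A and 2.88 TPM for PPARA.

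The other receptors overlapped between groups. ESRRA, an orphan receptor that works with PPARGC1A and the most abundant regulator of the list, had 30.3, 44.4 and 36.6 TPM with the scrambled ASO and 39.1, 29.7 and 35.6 TPM with the MYH7B ASO (log2 fold change -0.08, limma adjusted p = 0.873). ESRRG, its relative that is high in heart, had 21.1, 14.3 and 9.002 TPM and 11.2, 10.3 and 10.8 TPM. The scrambled ASO libraries of ESRRG spread widely and enclosed the MYH7B ASO libraries. PPARD, the other PPAR of muscle, had 13.4 ± 1.89 and 13.8 ± 2.16 TPM (SD, n = 3).

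Malonyl-CoA, the product of acetyl-CoA carboxylase, holds back CPT1. ACACB, the mitochondrial form of that carboxylase, had 15.2, 35.6 and 17.0 TPM with the scrambled ASO and 13.8, 13.4 and 8.68 TPM with the MYH7B ASO. The groups did not overlap, but scrambled ASO replicate 2 stood above the rest. The log2 fold change was -0.79 ± 0.32 (SE, limma adjusted p = 0.296). Leaving out scrambled ASO replicate 2 moved it to -0.42 (limma adjusted p = 0.459). In the authors' deposited table ACACB stood at -0.65 on the log2 scale (adjusted p-value 0.0417). ACACB overlaps AC007637.1 on the same strand over 9000 bp. MLYCD, the malonyl-CoA decarboxylase that opposes it, had 6.43 ± 2.58 and 5.61 ± 1.03 TPM (SD, n = 3). PDK4, a kinase that turns off pyruvate oxidation when fatty acids are in use, was low at 1.25 ± 0.67 and 1.67 ± 0.61 TPM, and no difference in it could be resolved (limma adjusted p = 0.777).

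A wider set of 105 genes of fatty acid handling was examined in 5 lists, of which 91 genes were tested. In limma 2 of the 91 were called lower, or 2.2% against 1.48% of all genes tested, and 0 higher. The groups did not overlap for 11 lower genes, or 12.1% against 14.1%, and 9 higher ones, or 9.89% against 7.11%. These shares are near those of all genes. Their median log2 fold change was 0.03. In the authors' deposited table, 6 of the 94 with an adjusted p-value were lower with one under 0.05, or 6.4% against 5.69% of all its genes, and 3 were higher, or 3.2% against 3.02%. No gene of the peroxisomal oxidation list was among them, with 17 tested genes between -0.53 and 0.49. Its gene with the lowest p was PHYH, which starts the breakdown of phytanic acid, at 12.4 ± 1.14 and 17.9 ± 3.17 TPM (SD, n = 3, limma adjusted p = 0.235).

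Both called genes belong to the branch that handles propionyl-CoA, the end product of odd-numbered chains and some amino acids. PCCA, the alpha subunit of propionyl-CoA carboxylase (chromosome 13, positions 100089015 to 100530437), had 10.4, 14.4 and 11.4 TPM with the scrambled ASO and 4.06, 2.67 and 3.74 TPM with the MYH7B ASO. It fell 3.45-fold, by 1.54 on the log2 scale (SE 0.21, limma adjusted p = 0.0127). The PCCA call was lost without MYH7B ASO replicate 4 (limma adjusted p = 0.0618), with no filter on low values (0.0868) and under both replicate blocks (0.331 and 0.720). MCEE, the methylmalonyl-CoA epimerase of the next step (chromosome 2, positions 71109684 to 71130239), had 18.4, 17.5 and 21.0 TPM and 8.97, 6.43 and 3.78 TPM. It fell 2.97-fold, by 1.49 on the log2 scale (SE 0.27, limma adjusted p = 0.0350), and was called in 1 of the 6 fits that left out a library, the one without MYH7B ASO replicate 2 (limma adjusted p = 0.0391, against 0.0785 to 0.101 in the others). The MCEE call was also lost with no filter on low values (limma adjusted p = 0.166), without a variance trend (0.0782) and under both replicate blocks (0.392 and 0.720). The remaining genes of that branch, looked at after these values were seen, overlapped or nearly so. PCCB, the partner subunit, had 33.3, 35.9 and 37.2 TPM and 41.6, 41.5 and 37.1 TPM, and MMUT, the mutase that ends the branch, 12.0 ± 2.57 and 12.3 ± 1.77 TPM (SD, n = 3). The ratio of PCCA to PCCB was 0.312, 0.400 and 0.305 with the scrambled ASO and 0.0978, 0.0644 and 0.101 with the MYH7B ASO. As with ETFA and ETFB, the alpha subunit was lower relative to its partner in every MYH7B ASO library. Both ratios were computed after the alpha subunit had been called, so in part they restate those calls. The HADHA to HADHB ratio overlapped between groups.

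**Figure D4:**
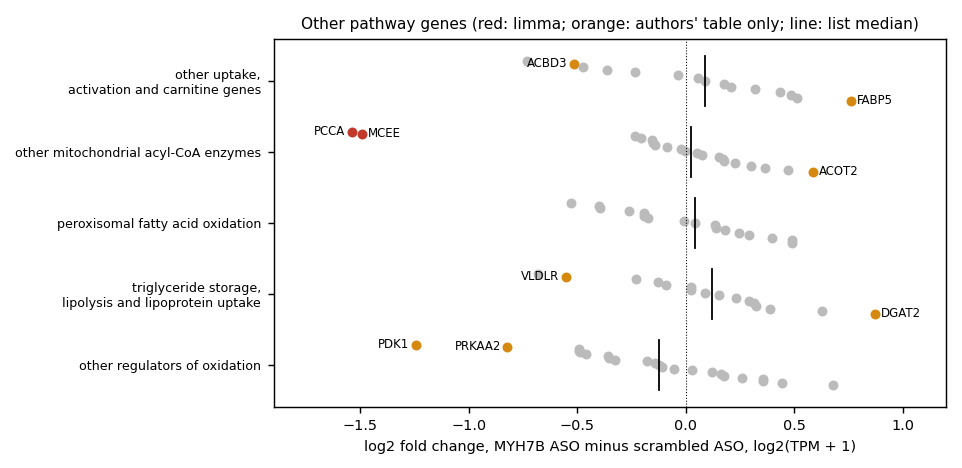
Log2 fold change of the 91 tested pathway genes outside the list, by list, on the log2(TPM + 1) scale, with red for the 2 genes called by limma, orange for those past 0.05 in the authors' deposited table alone and a black line at each list's median. PCCA at -1.54 and MCEE at -1.49 lie apart from the other 89 genes, except PDK1 at -1.25.

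In the remaining lists no gene was called by limma. PDK1, a pyruvate dehydrogenase kinase, had 61.3, 84.3 and 61.7 TPM with the scrambled ASO and 40.1, 20.7 and 27.1 TPM with the MYH7B ASO. Its groups did not overlap, and its log2 fold change of -1.25 stood at the threshold (limma adjusted p = 0.0501, and 2.06e-05 in the authors' deposited table). FABP5, a fatty acid binding protein of many tissues, had 63.9, 53.4 and 76.7 TPM and 97.5, 121.3 and 109.4 TPM, a log2 fold change of 0.76 (limma adjusted p = 0.0714, and 0.00301 in the authors' deposited table). Every MYH7B ASO library of FABP5 was above every scrambled ASO library, but the gene has 14 pseudogenes in GENCODE 29 that could share its reads. VLDLR, a receptor that takes up triglyceride-rich particles, had 52.1 ± 4.94 and 35.1 ± 1.26 TPM (SD, n = 3, limma adjusted p = 0.0992, and 0.00679 in the authors' deposited table). VLDLR and PDK1 each overlap an antisense gene, VLDLR-AS1 over 21526 bp and AC078883.1 over 1224 bp, and whether counting used strand is not given in the sources used here. PRKAA2, a catalytic subunit of the energy sensor AMPK named here after its values were seen, had 13.2, 12.96 and 10.4 TPM and 7.05, 5.78 and 6.44 TPM (limma adjusted p = 0.0693, and 0.0011 in the authors' deposited table). DGAT2 and ACOT2, also named after their values were seen, were higher in the authors' deposited table, with log2 fold changes of 0.74 for DGAT2 and 0.57 for ACOT2 and adjusted p-values of 0.0155 and 0.0251.

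Gene length was set beside the changes because the rule for the list did not use it. Across the 38 tested members, the span of the gene in GENCODE 29 and the log2 fold change had a Spearman correlation of -0.35, and across all 15852 tested genes with a span it was -0.31. These points are genes of the same 6 libraries and not independent replicates. Over all genes the median log2 fold change went from 0.09 under 10 kb to -0.57 over 300 kb. PPARGC1A spans 149 kb, PPARA 93.2 kb, ACACB 151.6 kb and ETFA 96.1 kb, against a median of 37.5 kb for the tested members, while ECHDC2 spans 31.3 kb. Other long members went both ways. Log2 fold changes were 0.45 for CPT1A (89.8 kb), 0.25 for ACSL3 (83.7 kb), 0.04 for PPARD (85.6 kb) and -0.12 for ACSL4 (109.2 kb). The 2 members over 300 kb, ESRRG (634.5 kb) and CD36 (309.7 kb), had -0.35 and -0.52, neither of them called. The 19 members of 30 to 100 kb had a median log2 fold change of 0.06, against -0.10 for all genes of that span. The 3 members of 100 to 300 kb had a median of -0.79, against -0.25 for all genes of that span. The 2 over 300 kb had -0.44, against -0.57. The part of gene length in these results was not tested.

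**Figure D5:**
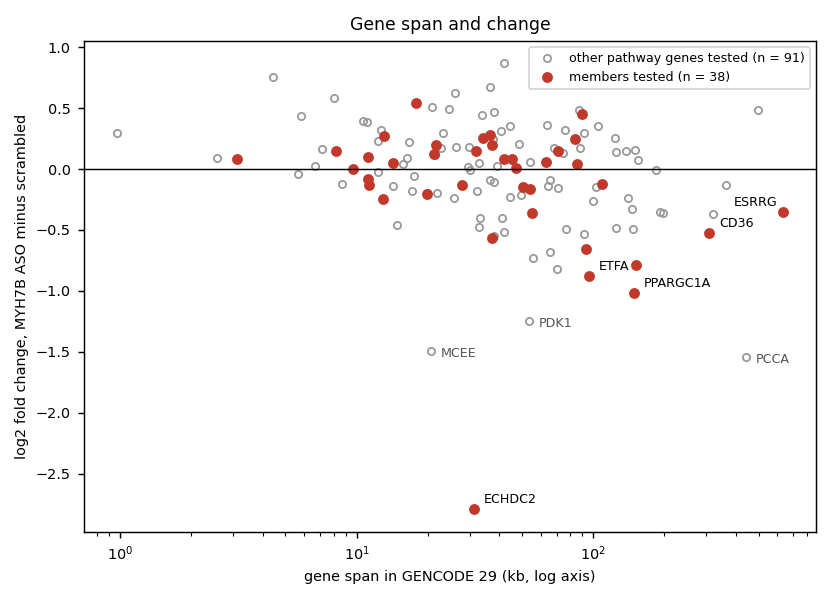
Log2 fold change, MYH7B ASO minus scrambled ASO, against gene span in kb on a log axis, for the 38 tested members (red) and the tested pathway genes outside the list (grey rings). ECHDC2, with a span of 31.3 kb, has the lowest value of either set at -2.79, and most members lie near zero.

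The libraries of a group did not rank alike. Among the MYH7B ASO libraries, replicate 2 was the highest of the 3 for 24 of 38 members, or 63.2% against 47.5% of all genes tested, and replicate 4 the lowest for 21, or 55.3% against 53.1%. For CPT2 and ACADS, MYH7B ASO replicate 2 alone set the upper end, at 10.9 and 17.6 TPM. Among the scrambled ASO libraries, replicate 3 alone had the high values of SLC25A20 and CPT1B, and replicate 2 that of ACACB.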

How the data were processed

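The deposited expression table holds TPM that the authors computed per gene in 7 libraries of poly-A RNA, each column summing to 1000000 TPM. Per the submitters' processing notes, the authors' tools and builds include DESeq2 and GRCh38 p13, and the aligner, quantifier and annotation release are not given in the sources used here. TPM keeps no depth, so replicate spread is the measure of error. The authors' deposited comparison table gives, per the file headers, a mean normalized count (a signal over the libraries), log2 fold changes with standard errors, a test score, p-values and adjusted p-values. Its name says that the fold changes are shrunken. Of its 25374 genes, 15527 have an adjusted p-value. No per-sample column was left unused (0 columns).

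The column of MYH7B ASO replicate 1 has 58721 values and 1513 blanks. As deposited, its median correlation with the other libraries on log2(TPM + 1), across genes, was 0.408. Put in the sorted order of the gene identifiers of GENCODE 29 it was 0.955, against 0.959 to 0.979 among the others. It was left out of the main comparison.

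Genes averaging 1 TPM or more entered limma 3.58.1 under R 4.3.3 (lmFit, eBayes with trend) on log2(TPM + 1), a scale that understates changes of low genes, with no covariate and Benjamini-Hochberg adjustment over all genes. The script was tested on simulated data. The tables were made with Python 3.11.15, pandas 2.3.3 and numpy 2.4.6. Gene positions are from GENCODE 29 on GRCh38, and the sequences from RefSeq on GRCh38.p14. The members and lists were chosen with earlier results of these data known. Values per library were given for called members, members past 0.05 in the authors' table, the 5 largest changes and the most abundant member of each role, and for the called gene, or the one with the lowest p, of each other list. Of these, PHYH and VLDLR were given as mean and SD instead. Other members were added for their roles. The alternatives were pseudocounts of 0.1 and 5, other filters, scalings and variance models, removal of mitochondrially encoded genes, replicate blocks, each library left out, all 7 libraries, and the authors' table.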

Additional observations from a re-analysis of the deposited data

Results flagged for a closer look

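In the MYH7B ASO group of 4, with the reordered replicate 1 included, each of the 38 tested members was searched for a single library lying apart. There were 2 such values, both in replicate 1. Chance gives about 1 in 20, or 1.9 of 38 members, so this number is no more than chance gives. PPARA was 2.88 TPM there, against 7.14 to 7.94 TPM in the other MYH7B ASO libraries. ESRRG was 1.95 TPM, against 10.3 to 11.2 TPM. Both lay below every scrambled ASO library as well. Replicate 1 also had the lowest value of all 7 libraries for 18 of the 38 members. That is a larger share than the 27.0% of the 15852 tested genes with a value there. It had the highest value for 6 of the 38, a smaller share than the 24.1% of those genes. FABP3 was 175.5 TPM in it, against 360.4 TPM in the lowest other library. The same library had 17.2% of TPM in mitochondrially encoded genes, below every other, and follows another annotation order. The part of these in its values was not tested.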

How the results depend on the processing

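No count test was run, because TPM holds no counts. Members called higher stayed at 0 under every alternative. Members called lower were 2 under each scaling and pseudocount, with no filter and with all 7 libraries, 3 with a minimum mean of 5 TPM or with sample weights, and 1 without a variance trend. They ranged from 1 to 2 when a library was left out, and were 5 in the authors' deposited table. The pathway genes outside the list went from 2 called to 0 with no filter on low values, 4 with a minimum mean of 5 TPM, 1 without a variance trend and 9 in the authors' deposited table, and ranged from 0 to 3 when a library was left out. Of all genes, 265 were called in the main comparison, 40 with no filter on low values, 150 without a variance trend, 170 with all 7 libraries and 1353 in the authors' deposited table, and 53 to 149 when a library was left out, fewest without MYH7B ASO replicate 4. Leaving out a library or adding untested genes lowers the power of the fit by construction, and the cause of the other moves was not tested. The share of lower calls was 89.1%, and 79.8% and 78.6% with median-ratio scaling and quantile normalization, which moved the median of all genes from -0.04 to 0.01 and 0.04.

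Under a replicate block, whether numbered by title or by description (2 shared pairs each), 0 genes, 0 members and 0 pathway genes were called by limma. At an unadjusted p under 0.05, limma then had 1718 and 1096 genes. Only the 2 shared pairs inform the group difference under a block, so its power is much lower by construction. The lost calls therefore say little about any gene. Under these blocks ECHDC2 had log2 fold changes of -2.77 and -2.97, with limma adjusted p-values of 0.331 and 0.720. After subtracting group means, libraries sharing a number correlated at 0.08 and 0.11 by title and at -0.07 and -0.04 by description, and no label says that the numbers pair cultures. TPM gives no depth, and limma standard errors were wide for genes near 1 TPM, at 0.44 for CD36 and 0.38 for PDK4. Differences that are small beside these could not be resolved. In the authors' deposited table, CD36 and PDK4 had mean normalized counts of 38.6 and 79.05 and adjusted p-values of 0.527 and 0.682.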
